A study of Homo sapiens with 8 samples.

Results

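The miR-17-92 and miR-106b-25 clusters are microRNA genes made from the introns of longer transcripts, MIR17HG and MCM7. They were followed here through 10 names: 5 mature microRNAs of miR-17-92 (miR-17-5p, miR-18a-5p, miR-19a-3p, miR-20a-5p and miR-92a-3p), 3 of miR-106b-25 (miR-106b-3p, miR-93-5p and miR-25-3p) and the 2 host genes. The microRNAs were taken by name from the 2656 names of the small RNA counts, and the host genes by symbol from the 57996 symbols of the RNA-seq counts. All 10 were present in the counts. HAP1 is a near-haploid human line derived from a chronic myelogenous leukaemia. Wild-type HAP1 cells were set against 1 clone, clone 11, in which BCDIN3D, a methyltransferase of the 5′ phosphate of histidine tRNA, had been knocked out. Both had grown for 48 h in IMDM medium with 10% serum, and 1 RNA preparation served for both a stranded total RNA library and a small RNA library. There were 2 wild-type and 2 knockout libraries in each assay, dated 6 May (replicate 1) and 9 May (replicate 2) in their labels. The design text calls them biological replicates. Nothing else says how separate the cultures were, so the p-values measure only the spread between these samples, which may be technical. With 1 clone, the lost gene and other features of that clone cannot be told apart.

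The libraries were of very unequal depth. RNA-seq held between 20065041 and 24415272 counts per library, and the small RNA libraries only 157706 to 346626, so that 1 microRNA count was worth between 2.91 and 5.5 CPM (counts scaled to a common library total). The targeted gene was lower in both knockout libraries: BCDIN3D stood at 7.40 and 4.90 CPM in wild-type, against 1.56 and 2.71 CPM in knockout, a log2 fold change of -1.52 ± 0.24 (SE, edgeR adjusted p = 2.06e-05). Blood lineage genes were close to absent in this leukaemia-derived line. Of 9 such genes, 8 (PTPRC, CD34, CD33, SPI1, GATA1, ITGAM, MPO and HBG1) had at most 5 counts in any library and summed to 3, 22, 4 and 3 counts in the libraries WT1, WT2, KO1 and KO2, and HBG1 was at 0 in all 4. KIT, a receptor of blood progenitors, was counted, at 10.8 and 11.0 CPM in wild-type and 0.804 and 1.41 CPM in knockout.

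A microRNA gene is transcribed as a long primary transcript, from which DROSHA and DGCR8 cut short hairpins, and DICER1 then cuts a duplex. One strand of the duplex, the 5p or the 3p arm, is kept in an Argonaute protein and pairs with messenger RNAs through its seed, the bases from position 2 to position 8. Hairpins of 1 transcript are therefore made together but need not yield equal amounts of mature microRNA. miR-17-92 is known as an oncogenic cluster switched on by MYC and E2F factors in leukaemias and lymphomas, and miR-106b-25 is a related cluster within a gene of the replicative helicase.

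The members fall into few seed groups, and the 2 clusters share the main ones, which is why their sequences are shown before their counts. The mature sequences are those of RefSeq (GRCh38.p14), found for 8 of the 8 microRNA members, and each is written 5′ to 3′ with the seed in capitals. The first group shares the seed AAAGUGC and holds members of both clusters, together with miR-106a-5p of the related miR-106a-363 cluster on the X chromosome.

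hsa-miR-17-5p: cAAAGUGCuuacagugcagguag
hsa-miR-20a-5p: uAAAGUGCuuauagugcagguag
hsa-miR-93-5p: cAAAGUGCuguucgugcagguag
hsa-miR-106b-5p: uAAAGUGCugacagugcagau
hsa-miR-106a-5p: aAAAGUGCuuacagugcagguag

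Positions are counted from 1 at the 5′ end. From miR-17-5p to miR-106a-5p the only substitution over the 23 bases is C1A, and from miR-17-5p to miR-20a-5p the substitutions are C1U and C12U. From miR-17-5p to miR-93-5p they are U10G, A11U, C12U and A13C, all outside the seed. The second group carries the seed AUUGCAC. It holds the 2 members with the most counts, 1 from each cluster, and miR-363-3p of the X-chromosomal cluster.

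hsa-miR-92a-3p: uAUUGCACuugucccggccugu
hsa-miR-25-3p: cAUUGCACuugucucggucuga
hsa-miR-363-3p: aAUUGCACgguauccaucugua

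miR-92a-3p and miR-25-3p differ at 4 positions of 22, U1C, C14U, C18U and U22A, with miR-92a-3p as the reference. The miR-18 and miR-19 seeds, AAGGUGC and GUGCAAA, occur in miR-17-92 but not in the microRNAs of miR-106b-25, and miR-106b-3p had a seed held by none of the other names among the 2367 of 2656 with a RefSeq sequence.

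hsa-miR-18a-5p: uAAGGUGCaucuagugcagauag
hsa-miR-18b-5p: uAAGGUGCaucuagugcaguuag
hsa-miR-19a-3p: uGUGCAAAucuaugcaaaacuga
hsa-miR-19b-3p: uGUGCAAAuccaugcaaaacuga
hsa-miR-106b-3p: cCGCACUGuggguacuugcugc

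miR-18a-5p and miR-18b-5p differ by A20U, and miR-19a-3p and miR-19b-3p by U11C. The base composition of the members ranged from 34.8% G and C in miR-19a-3p to 63.6% in miR-106b-3p, around a median of 51.0% over the 478 tested names with a sequence. miR-92a-3p stood at 54.5% and miR-25-3p close to that median.

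Within the genome the hairpins of each cluster lie close together. MIR17HG (GRCh38, chromosome 13, 91347687 to 91354577, plus strand) is a non-coding gene of 6891 bases, and its 6 hairpins span 787 of them. In order from the start of the gene they are MIR17 at base 2918, MIR18A at 3064, MIR19A at 3204, MIR20A at 3378, MIR19B1 at 3505 and MIR92A1 at 3627. MCM7 (chromosome 7, 100092728 to 100101397, minus strand) codes for a subunit of the hexameric helicase that opens DNA at replication origins. MIR106B at base 7323 from its start, MIR93 at 7550 and MIR25 at 7754 span 515 bases. Some mature sequences come from more than 1 place: miR-92a-3p and miR-19b-3p are encoded on chromosome 13 and again on the X chromosome, so their counts cannot be assigned to miR-17-92 alone. The mature miR-25-3p lies at 100093571 to 100093592 on chromosome 7.

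Within miR-17-92, 1 of the arms held almost all of the counts. In the order WT1, WT2, KO1 and KO2, which is used for all values given in 4 below, miR-92a-3p had 3585, 2652, 2085 and 2924 counts. These made up 98.4% (exact 95% binomial interval 98.0 to 98.8), 95.3% (94.4 to 96.0), 94.9% (93.9 to 95.7) and 96.5% (95.8 to 97.2) of all counts of the 12 mature arms of the cluster. These intervals cover counting error only. The wild-type share was 96.8% ± 2.19 and the knockout share 95.7% ± 1.13 (SD, n = 2), with overlapping groups. The next arm of the cluster lay 256, 115, 48.5 and 69.6 times lower, and it was not the same arm in all libraries: miR-20a-5p in WT1, miR-18a-3p in WT2 and miR-17-5p in both knockout libraries. By mean CPM miR-92a-3p ranked 11 of the 2656 names, while miR-17-5p ranked 109, miR-20a-5p 152, miR-18a-5p 417 and miR-19a-3p 603.

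**Figure D1:**
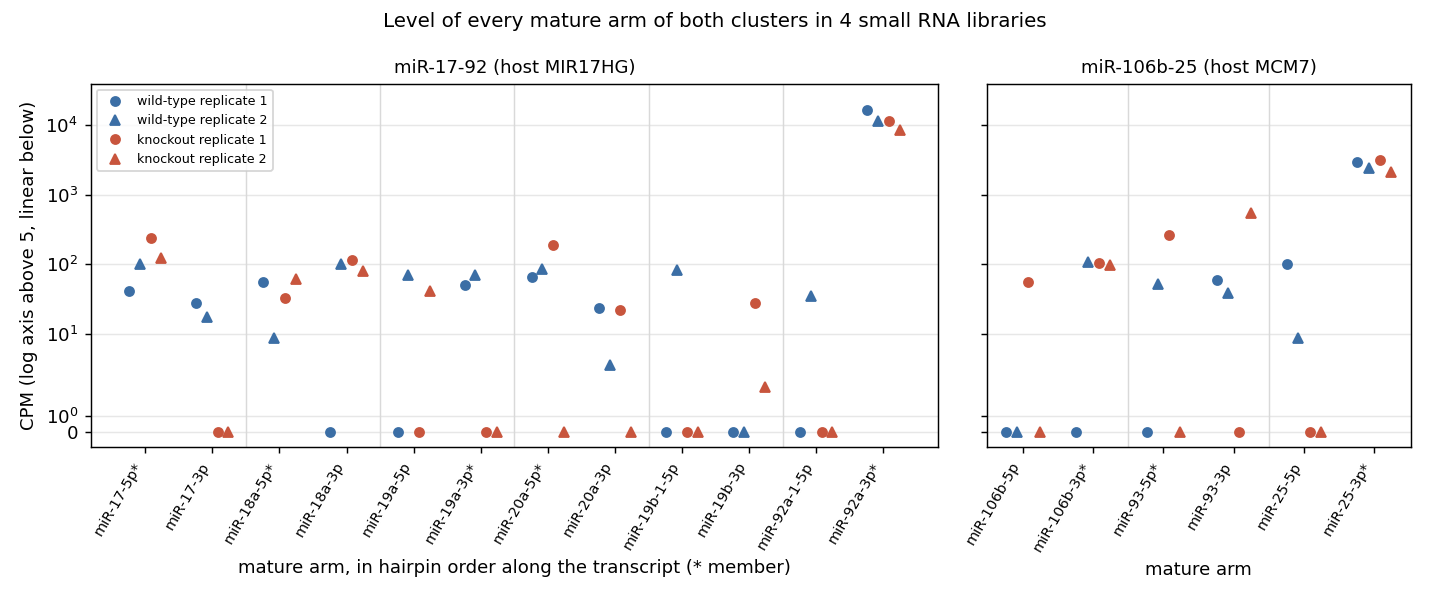
CPM of each mature arm of miR-17-92 and miR-106b-25 in the 4 small RNA libraries, with arms in hairpin order on the horizontal axis, members marked with an asterisk, and CPM on an axis that is logarithmic above 5 and linear below. Points at the foot are counts of 0, and miR-92a-3p (8506 to 16550 CPM) and miR-25-3p (2103 to 3166 CPM) stand above the other arms in every library.

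The remaining miR-17-92 members were each counted at most 43 times in a library. miR-17-5p, which gives the cluster its name, had 9, 23, 43 and 42 counts, and miR-20a-5p, its close relative, 14, 20, 34 and 0. miR-18a-5p, whose hairpin needs the RNA-binding protein HNRNPA1 for its processing, had 12, 2, 6 and 21 counts. miR-19a-3p, of the seed group held to be the main oncogenic part of the cluster, had 11, 16, 0 and 0. Only miR-17-5p and miR-18a-5p of these 4 were counted in all libraries, and the wild-type values of miR-18a-5p lay further apart than the group means did. Where both libraries of a group were at 0, a floor of 3 counts over the group was used, which covers counting error only.

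In miR-106b-25 the lead of 1 arm was smaller. miR-25-3p had 639, 572, 576 and 723 counts, which were 94.8%, 92.3%, 88.2% and 76.3% of all counts of the 6 mature arms. The lowest share, in KO2 (exact 95% binomial interval 73.5 to 79.0), stood beside 190 counts of miR-93-3p, which had 13, 9 and 0 counts in the other libraries. The wild-type value was 93.5% ± 1.77 and the knockout value 82.2% ± 8.41 (SD, n = 2). Both knockout shares lay below both wild-type shares, with an exact two-sided permutation p that cannot go below 0.333 in 2 against 2 libraries. The remaining members were irregular: miR-93-5p had 0, 12, 48 and 0 counts and miR-106b-3p 0, 25, 19 and 34, so that each was missing from at least 1 library.

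The arm with the more counts was not the same for all hairpins of the clusters. These are read counts, and which strand was kept was not tested. Summed over the 4 libraries, the 5p arm had the more counts for MIR17 (117 against 10), MIR20A (68 against 10) and MIR19B1 (19 against 6), and the 3p arm for MIR92A1 (11246 against 8), MIR25 (2510 against 24), MIR93 (212 against 60) and MIR106B (78 against 10). Of these, the 3p count of MIR93 was mostly the 190 counts of KO2. The 5p count of MIR19B1 came from WT2 alone, and in KO1 and KO2 only its 3p arm was counted (5 and 1). The 5p count of MIR17 was the same as that of miR-106a-5p, so its arms cannot be compared with certainty. MIR19A was near balance, with 30 counts of the 5p and 27 of the 3p arm, and MIR18A had 41 and 71. The miR-92a-3p and miR-19b-3p counts include whatever their X-chromosomal copies contributed, since both copies of each give the same mature sequence.

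Of the arms that are not members, miR-93-3p had the most counts, 13, 9, 0 and 190, and rested on KO2. Its log2 fold change was 2.48 ± 1.84 (SE, edgeR adjusted p = 0.999), and it was -6.41 without KO2. The other arms had at most 27 counts in a library. In miR-17-92, miR-18a-3p had 0, 23, 21 and 27 counts and miR-19a-5p 0, 16, 0 and 14. miR-17-3p had 6, 4, 0 and 0, miR-20a-3p 5, 1, 4 and 0, and miR-19b-3p 0, 0, 5 and 1. miR-19b-1-5p (19 counts) and miR-92a-1-5p (8 counts) were counted in WT2 alone. In miR-106b-25, miR-106b-5p was counted 10 times, in KO1 alone, and miR-25-5p had 22, 2, 0 and 0 counts. Between 1 and 6 of the 12 arms of miR-17-92 were at 0 in any 1 library.

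Some names cannot be told apart in these counts. miR-17-5p and miR-106a-5p, which share 22 of 23 bases, held identical counts in all 4 libraries, 9, 23, 43 and 42, so the value printed for miR-17-5p may in part or wholly be that of its X-chromosomal paralog. miR-18a-5p and miR-18b-5p held the same counts in WT2 (2) and KO2 (21) but not in WT1 (12 against 0) or KO1 (6 against 0). The other arms of miR-106a-363 were low. miR-363-3p had 28, 13, 8 and 7 counts and miR-20b-5p 12, 0, 4 and 4. miR-106a-3p and miR-20b-3p were at 0 in every library.

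By seed, miR-92a-3p and miR-25-3p together made up nearly all of the family that reads AUUGCAC. Over the 6 names with that seed, summed over libraries, miR-92a-3p held 77.7% of the counts, miR-25-3p 17.3%, miR-92b-3p 4.31% and miR-363-3p 0.387%. The family had 4489, 3448, 2790 and 3747 counts, or 1.90%, 1.29%, 1.77% and 1.08% of each library. The family of seed AAAGUGC, which includes miR-17-5p, miR-20a-5p, miR-93-5p and miR-106b-5p, had 45, 78, 202 and 88 counts. That was 0.0191%, 0.0293%, 0.128% and 0.0254% of each library, with miR-17-5p and miR-106a-5p both included. Since the counts of these names were identical in every library, the same reads may have been counted under both, and the sum may be too high. Its highest value, in KO1, rested on miR-93-5p (48 counts), on miR-17-5p and miR-106a-5p (43 counts each), on miR-20a-5p (34 counts) and on miR-526b-3p (20 counts, against 1, 0 and 0 in the other libraries).

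Knockout against wild-type, 0 of the 8 microRNA members passed the edgeR test, and all had an adjusted p of 0.999 over 546 tested names. In the same test 0.366% of all tested names were called, 2 of 546, and 2.01% had an unadjusted p under 0.05, which 0 of the 8 members had. All 8 members passed the filter on low counts, and miR-19a-3p did so through its wild-type libraries alone. The 2 groups did not overlap for 2 of the 8, miR-17-5p and miR-19a-3p, against 31.5% of all tested names (17.4% higher and 14.1% lower in knockout). DESeq2 also called 0 of the 8. The biological coefficient of variation of the small RNA libraries was 109%.

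miR-92a-3p was measured best. It stood at 16550 and 11450 CPM in wild-type and at 11460 and 8506 CPM in knockout, means of 14000 ± 3611 and 9984 ± 2089 (SD, n = 2). The highest value was WT1 and the lowest KO2, while WT2 and KO1 were alike, so that the groups just overlapped. The log2 fold change was -0.49 ± 0.32 (SE). It was -0.21 when libraries were scaled by their total alone, and ran from -0.83 to -0.09 with 1 library left out. miR-25-3p stood at 2951 and 2469 CPM in wild-type and at 3166 and 2103 CPM in knockout, with the knockout libraries on either side of the wild-type ones. Its log2 fold change was -0.04 ± 0.35, and it was 0.25 when libraries were scaled by their total alone, so it had no settled sign.

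**Figure D2:**
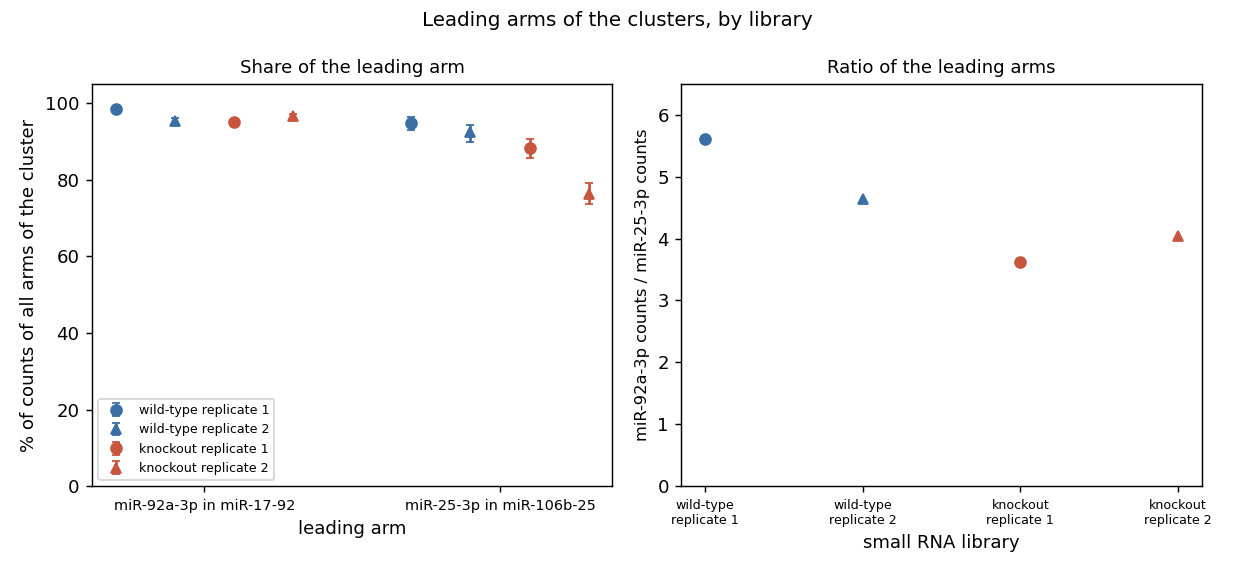
Left, the share of miR-92a-3p and of miR-25-3p in the counts of all arms of their clusters, in percent, 1 point per small RNA library with its exact 95% binomial interval. Right, counts of miR-92a-3p per count of miR-25-3p in each library, which are 5.61 and 4.64 for the wild-type libraries against 3.62 and 4.04 for the knockout libraries.

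The ratio of these 2 microRNAs within a library does not depend on how libraries are scaled. There were 5.61 and 4.64 counts of miR-92a-3p per count of miR-25-3p in wild-type, against 3.62 and 4.04 in knockout, means of 5.12 ± 0.689 and 3.83 ± 0.300 (SD, n = 2). Both knockout ratios were lower than both wild-type ratios, a difference of -0.41 on the log2 scale. The exact two-sided permutation test gave p = 0.333, the smallest that 2 against 2 libraries allow. Of all tested names, 31.5% had groups that did not overlap in CPM. In CPM, the 2 wild-type libraries differed by 0.53 on the log2 scale for miR-92a-3p and by 0.26 for miR-25-3p, and the 2 knockout libraries by 0.43 and 0.59.

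The members at low counts had larger fold changes and larger errors. miR-17-5p stood at 41.6 and 99.3 CPM in wild-type and at 236 and 122 CPM in knockout, both knockout values above both wild-type values. Its log2 fold change was 1.34 ± 0.99 (SE, unadjusted p = 0.218). miR-19a-3p stood at 50.8 and 69.1 CPM in wild-type and at 0 in both knockout libraries. Its 27 wild-type counts against 0 come to 10.6-fold if the knockout group is set at the floor of 3 counts (edgeR unadjusted p = 0.0722). That figure leaves out the error of the wild-type counts and the spread between replicates, and is no lower bound. Having passed the filter through wild-type alone, miR-19a-3p could be tested only because it was counted there. The values of these 2 members lay in opposite directions, and neither passed the test.

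For the other members the groups overlapped. miR-18a-5p stood at 55.4 and 8.63 CPM in wild-type and at 33.0 and 61.1 CPM in knockout (log2 fold change 0.56 ± 1.99). miR-20a-5p stood at 64.7 and 86.3 CPM in wild-type, at 187 CPM in KO1 and at 0 in KO2 (0.29 ± 1.89). Its single value above and its single value below all others both came from the knockout group. miR-93-5p stood at 0 and 51.8 CPM in wild-type and at 264 and 0 CPM in knockout (2.31 ± 2.42), and miR-106b-3p at 0 and 108 CPM and at 104 and 98.9 CPM (0.90 ± 1.77). Each of these standard errors exceeded the fold change beside it.

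**Figure D3:**
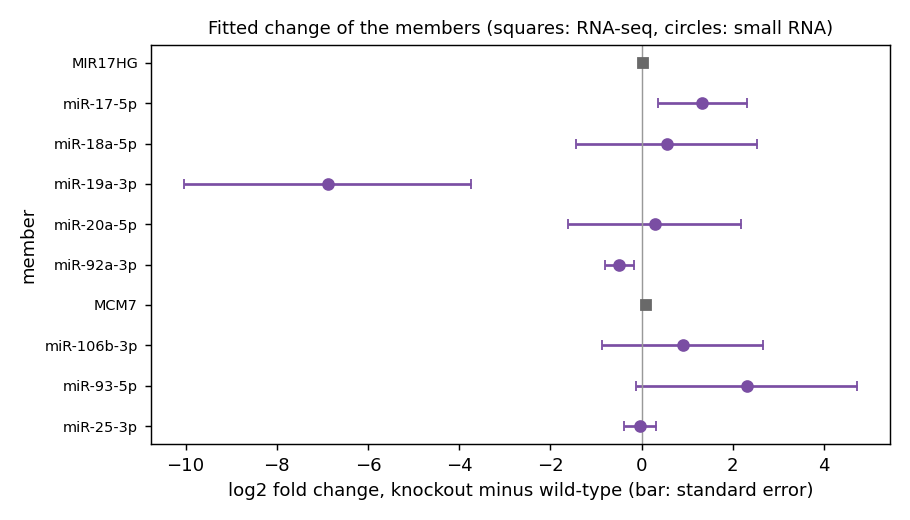
Log2 fold change of each member, knockout minus wild-type, with its standard error as a bar, for the 8 microRNAs and the 2 host genes. The host genes lie near 0 with errors of 0.09 and 0.05. The microRNAs have errors from 0.32 to 3.15, and the fitted value of miR-19a-3p, at 0 counts in both knockout libraries, depends on the prior count and is no bound.

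Irregular zeros were frequent among the members and among the other tested names. Of the 8 members, 4 had a 0 in at least 1 library, as had 248 of the 546 tested names (45.4%). A 0 in 1 replicate beside 10 or more counts in the other replicate of the same group was seen in 3 of the 8 members (37.5%) and in 192 of the tested names (35.2%). Among the 471 tested names with a mean between 20 and 200 CPM, where all the members other than miR-92a-3p and miR-25-3p lie, 52.4% had a 0, against 3.23% of the 31 names with a mean of at least 1000 CPM. The median difference between the 2 wild-type replicates was 1.85 on the log2 scale in the lower range and 0.35 in the upper range, and between the knockout replicates 1.47 and 0.42. Zeros and wide differences between replicates were thus also seen in other names of that level.

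Summed over the listed members, the wild-type and knockout values of each cluster overlapped. The 5 members of miR-17-92 summed to 16760, 11710, 11920 and 8689 CPM, or 14235 ± 3570 for wild-type against 10304 ± 2280 for knockout (SD, n = 2), a log2 ratio of -0.47. The 3 members of miR-106b-25 summed to 2951, 2629, 3534 and 2202 CPM, or 2790 ± 228 and 2868 ± 942, a log2 ratio of 0.04. No test was made on these sums, which are little more than miR-92a-3p and miR-25-3p. Over all 12 arms, miR-17-92 made up 1.54%, 1.04%, 1.39% and 0.874% of the counts of a library, and over all 6 arms miR-106b-25 made up 0.286%, 0.233%, 0.414% and 0.273%.

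The host transcripts were measured with far smaller error, and neither was called by edgeR or by DESeq2 or had an unadjusted p under 0.05. MIR17HG had 687, 807, 727 and 647 counts, which are 33.0 and 32.7 CPM in wild-type and 34.4 and 32.5 CPM in knockout. Its log2 fold change was 0.03 ± 0.09 (SE, edgeR adjusted p = 0.942), and it was 0.00 with scaling by library totals alone, so that its sign means nothing. MCM7 had 16695, 20202, 18036 and 17270 counts, which are 802 and 818 CPM in wild-type and 853 and 868 CPM in knockout. Both knockout values were above both wild-type values, as for 23.5% of all tested genes, and the log2 fold change was 0.09 ± 0.05 (adjusted p = 0.457). In RNA-seq 6.56% of the 16233 tested genes were called and 45.3% had groups that did not overlap. By mean CPM, not corrected for length, MCM7 ranked 102 and MIR17HG 6304 of the tested genes.

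**Figure D4:**
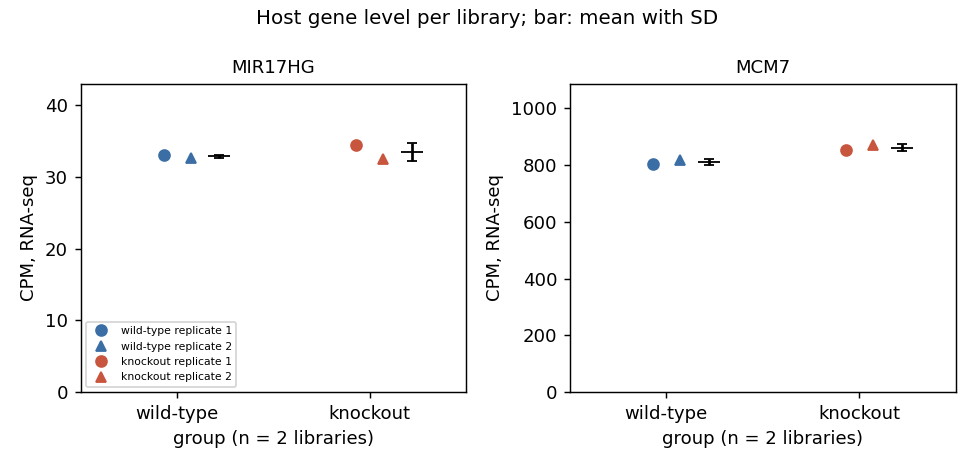
CPM of MIR17HG and MCM7 in each RNA-seq library, wild-type and knockout on the horizontal axis, with points for libraries and the group mean and SD (n = 2) in black beside them. MIR17HG lies between 32.5 and 34.4 CPM with overlapping groups, and both knockout values of MCM7 (853 and 868 CPM) lie above the wild-type values (802 and 818 CPM).

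Each leading microRNA was then set against its host. Per CPM of MIR17HG there were 501 and 350 CPM of miR-92a-3p in wild-type, against 333 and 261 in knockout, means of 426 ± 107 and 297 ± 50.8 (SD, n = 2). MIR17HG itself stayed within 32.5 to 34.4 CPM, and the exact two-sided permutation p was 0.333. Per CPM of MCM7 there were 3.68 and 3.02 CPM of miR-25-3p in wild-type, against 3.71 and 2.42 in knockout, 3.35 ± 0.467 and 3.07 ± 0.912, with an exact permutation p of 1.0. The 2 hosts kept a near constant ratio to each other: there were between 24.3 and 26.7 counts of MCM7 per count of MIR17HG (exact permutation p = 0.667). CPM of the 2 assays have different totals, so these ratios compare libraries and are not molecules per transcript. They also depend on how the small RNA libraries are scaled. Scaling by totals alone moved the log2 fold change of miR-92a-3p from -0.49 to -0.21. Since these are bulk samples, fewer cells with a transcript and less of it per cell cannot be told apart.

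The hairpins themselves have rows of their own in the RNA-seq counts, and those of miR-17-92 were empty. MIR17, MIR18A, MIR19A, MIR20A, MIR19B1 and MIR92A1 were at 0 in all 4 libraries. In MCM7, MIR25 had 34, 44, 44 and 36 counts (log2 fold change 0.19 ± 0.29, edgeR adjusted p = 0.844), while MIR93 had 6, 1, 1 and 4 and MIR106B 6, 0, 4 and 1. These rows were looked at after their values were seen. A stretch of host RNA that overlaps a hairpin row may be counted there, in the host or in neither, so the rows are no measure of precursor.

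The other replicative helicase genes also had small fold changes. Of 15 genes of the MCM and GINS complexes and their partners, MCM7 included, 0 were called by edgeR or by DESeq2 and 0 had an unadjusted p under 0.05, beside 6.56% called by edgeR and 16.7% with such a p over all tested genes. Their log2 fold changes lay between -0.11 and 0.11 with a median of 0.03, against 0.00 over all tested genes. Those of smallest p were MCM6 (-0.11 ± 0.06, edgeR adjusted p = 0.393) and MCM5 (0.10 ± 0.06, adjusted p = 0.402), 2 further subunits of the hexamer. A list of 15 genes of the MYC and E2F families and their partners also gave 0 calls with either tool. It had 0 unadjusted p under 0.05 (6.56% called by edgeR and 16.7% with such a p over all tested genes), and its median log2 fold change was -0.01. MYC stood at 219 and 288 CPM in wild-type and at 210 and 244 CPM in knockout, with overlapping groups and a log2 fold change of -0.16 ± 0.19 (adjusted p = 0.802). It was 0.06 without WT2 and -0.35 without WT1, so that its sign depended on which wild-type library was kept. On each date the knockout value of MYC was below the wild-type one. With the date as a block the log2 fold change was -0.15 (edgeR adjusted p = 0.0503). E2F7 (0.16 ± 0.08, adjusted p = 0.305) and E2F1 (0.14 ± 0.08, adjusted p = 0.375) had the smallest p of that list.

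The genes that cut the precursors gave no call either. Of 10 genes of the processing machinery and its cofactors for these clusters, 0 were called by edgeR or by DESeq2 and 1, DROSHA, had an unadjusted p under 0.05, against 6.56% called by edgeR and 16.7% with such a p over all tested genes. The median log2 fold change was 0.02. The nuclease DROSHA stood at -0.19 ± 0.08 (edgeR adjusted p = 0.173) and its partner DGCR8, which binds the hairpin, at 0.12 ± 0.08 (adjusted p = 0.445). Around the hosts on the chromosome, 0 of 12 neighbours of MCM7 were called by either tool and 1, LAMTOR4, had an unadjusted p under 0.05, again beside 6.56% called by edgeR and 16.7% over all tested genes, with a median log2 fold change of 0.04. LAMTOR4, part of the complex that anchors nutrient signalling to lysosomes, stood at 74.2 and 74.2 CPM in wild-type and at 87.8 and 82.1 CPM in knockout (0.20 ± 0.07, adjusted p = 0.113). With the date as a block its adjusted p was 0.0365. ZKSCAN1, a zinc finger gene, stood at -0.10 ± 0.07 (adjusted p = 0.593).

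Next to MIR17HG, 1 of 2 glypican genes was called, beside 6.56% of all tested genes (3.5% lower in knockout). GPC5, a cell surface proteoglycan gene that starts 44044 bases beyond the end of MIR17HG, had 26 and 21 wild-type counts against 5 and 9 in knockout. Its log2 fold change was -1.59 ± 0.50 (edgeR adjusted p = 0.0416). GPC5 passed the filter on low counts through its wild-type libraries alone, so it could be tested only because it was counted there. The call was not made by DESeq2 (adjusted p = 0.392), without the filter on low counts (adjusted p = 0.0514) or in any fit with 1 library left out (adjusted p from 0.0812 to 0.506). GPC6, beyond it, stood at -0.34 ± 0.13 (adjusted p = 0.128).

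Messenger RNAs named as targets of these seeds were mostly near 0. The lists came from general knowledge of the field, with no target site searched, and CCND1, BCL2L11 and a few other genes stood in more than 1. Over all of them 58 of 60 genes were tested: 2 rose, 6 fell and 50 were not called. That is 13.8% called, beside 6.56% of all tested genes (3.06% higher and 3.5% lower in knockout), with a median log2 fold change of -0.01, and 47 of the 58 lay within 0.25 of 0. These counts describe the lists and carry no test. Well known targets of these clusters were among those not called: BCL2L11, the pro-apoptotic BIM, stood at -0.14 ± 0.13 and CDKN1A, the cell cycle inhibitor p21, at -0.10 ± 0.18.

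**Figure D5:**
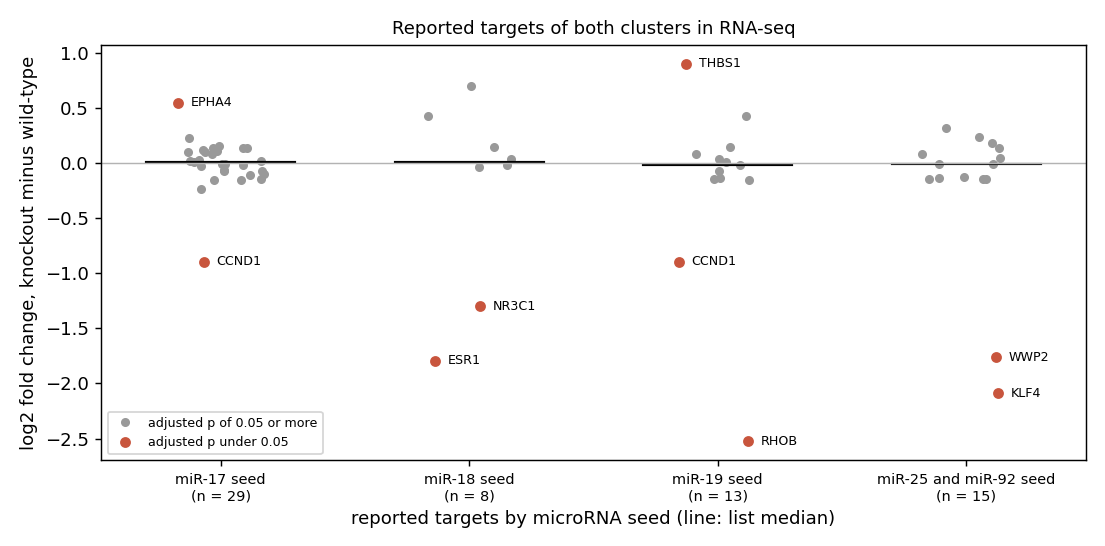
Log2 fold changes in RNA-seq, knockout minus wild-type, of the genes listed as targets of each seed group, 1 point per tested gene, with called genes marked and the median of each list as a line. Medians lie between -0.02 and 0.01, and the called genes lie on both sides of 0.

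Among the 29 tested genes of the miR-17 list, 1 rose and 1 fell (6.9% called, beside 6.56% of all tested genes). EPHA4, an ephrin receptor, stood at 83.3 and 78.6 CPM in wild-type and at 111 and 126 CPM in knockout (log2 fold change 0.55 ± 0.07, edgeR adjusted p = 7.56e-08). CCND1, cyclin D1, stood at 3.12 and 4.90 CPM and at 1.56 and 2.82 CPM (-0.89 ± 0.26, adjusted p = 0.0301). DESeq2 did not call it (adjusted p = 0.307), nor did the fits without WT2 (adjusted p = 0.555) or without KO1 (0.337). The median of the list was 0.01.

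The miR-18 list had 2 falls and 0 rises among 8 tested genes, both at low counts. Over all tested genes 6.56% were called, 3.06% higher and 3.5% lower in knockout. ESR1, the oestrogen receptor, had 20 and 23 wild-type counts against 5 and 6 in knockout (-1.80 ± 0.53, edgeR adjusted p = 0.0247). ESR1 passed the filter on low counts through its wild-type libraries alone, so it could be tested only because it was counted there. NR3C1, the glucocorticoid receptor, had 22 and 53 counts and then 12 and 15 (-1.30 ± 0.40, adjusted p = 0.0368). DESeq2 called neither (adjusted p = 0.322 and 0.389). ESR1 was lost in every fit with 1 library left out (adjusted p from 0.145 to 0.225), and NR3C1 in those without WT2 (0.722), KO1 (0.167) or KO2 (0.0714). In the wild-type libraries NR3C1 itself differed by more than its lower wild-type value differed from knockout.

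Of the 13 tested genes of the miR-19 list, 1 rose and 2 fell (23.1% called, beside 6.56% of all tested genes). RHOB, a small GTPase of endosomes, stood at 2.98 and 4.33 CPM in wild-type and at 0.426 and 0.855 CPM in knockout (-2.53 ± 0.33, edgeR adjusted p = 9.37e-08). THBS1, a secreted inhibitor of vessel growth, stood at 7.26 and 4.86 CPM and at 9.79 and 12.7 CPM (0.90 ± 0.17, adjusted p = 3.01e-04). The other fall was CCND1. THBS1 and RHOB were also called by DESeq2 (adjusted p = 0.00833 and 1.62e-05), in opposite directions.

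Of the 15 tested genes of the list shared by miR-25 and miR-92a, 0 rose and 2 fell (13.3% called, beside 6.56% of all tested genes). WWP2, a ubiquitin ligase gene, stood at 54.9 and 53.3 CPM in wild-type and at 16.7 and 15.1 CPM in knockout (-1.76 ± 0.10, edgeR adjusted p = 4.12e-20). KLF4, a zinc finger transcription factor, stood at 7.45 and 9.92 CPM and at 2.18 and 1.91 CPM (-2.09 ± 0.21, adjusted p = 8.66e-11). The median of the list was -0.01, and MYLIP, which was not called, stood at 0.32 ± 0.11 (adjusted p = 0.0609, and 0.0236 with the date as a block). miR-92a-3p and miR-25-3p themselves were not called.

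The names whose values ran most closely beside the members were found by distance between log2(CPM + 1) values centred on their mean over the 4 libraries, a description over 4 points that share library depth. Beside MIR17HG, among 4936 genes with a mean from 0.5 to 2 times its own, these were GJC1 (distance 0.00706), SLC45A4 (0.00773) and SUSD5 (0.00780). Beside MCM7, among 301 genes, they were the ribosomal protein genes RPS19 (0.0125), RPS7 (0.0140) and RPL37A (0.0189). Beside the sum of miR-17-92, among 124 microRNAs with a mean of at least 100 CPM, they were miR-3941 (0.128), miR-99a-5p (0.168) and miR-183-5p (0.241). Beside the sum of miR-106b-25 they were miR-6836-5p (0.180), miR-7161-5p (0.289) and miR-548an (0.313). The distances of the microRNAs were larger than those of the genes.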

How the data were processed

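The authors deposited raw read counts, whole numbers per gene symbol (RNA-seq) or per mature microRNA name (small RNA-seq), 1 file per library, with no normalisation. The submitters' processing notes name STAR, featureCounts, Subread, SAMtools, cutadapt, FastQC and the build hg38. Not given in the sources used here are versions, roles, the annotation, the strand setting and the treatment of reads that fit several loci. A microRNA row named with an asterisk held 0 counts and was left out.

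The 2 assays were fitted separately with edgeR 4.0.16 (R 4.3.3). A filter (filterByExpr, minimum count 10) passed 16233 genes and 546 microRNAs. TMM scaled the libraries, and the test of knockout against wild-type was the robust quasi-likelihood F test and Benjamini-Hochberg adjustment over all rows tested (threshold 0.05), a procedure tested on simulated data. Adjusted p-values are from this fit unless DESeq2 1.42.0 is named. A standard error is the log2 fold change over the root of F, and CPM use TMM-scaled totals. The fold value against a group at 0 uses 3 counts over that group, and intervals for shares are exact at 95%. Counting intervals and floors cover counting error only.

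The members and lists, and the rule for naming genes, were chosen with earlier results of these data known. All members were named, all other arms of the clusters, MYC, and for each list up to 2 called genes each way or the 2 of smallest p. BCL2L11, CDKN1A, MYLIP, miR-92b-3p, miR-526b-3p and the hairpin rows were named after their values were seen. Dates as a block, other scaling, other filters, DESeq2 and leaving out each library were the alternatives. Over all tested rows, same-dated libraries hardly deviated together from their group means (correlation 0.075 in RNA-seq and -0.09 in small RNA-seq). These correlations do not describe single genes.

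RefSeq sequences were matched by name for 2367 of 2656 names and for 27 of the 28 arms of the 3 clusters.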

Additional observations from a re-analysis of the deposited data

How the results depend on the processing

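The alternatives were counted for the members and a chosen set of other genes and microRNAs, which left out MYLIP. Of these values, 323 kept their direction and their side of the threshold, 18 lost the threshold, 3 gained it and 11 changed sign or reached 0. Among members, miR-25-3p changed sign with scaling by library totals (0.25), without WT1 (0.20) and without KO2 (0.26), with a range of -0.36 to 0.26 over the libraries left out. miR-20a-5p changed sign with the replicate block (-1.77) and without KO1 (range -7.31 to 1.36), and miR-18a-5p without WT2 (range -0.35 to 2.48). MIR17HG was 0.00 with library totals and -0.013 without KO1 (to 0.067 without KO2). Of the other arms, miR-19a-5p changed sign without KO1 (range -5.78 to 0.34) and miR-93-3p without KO2 (range -6.41 to 3.47), and MYC did so without WT2 (0.056, down to -0.35 without WT1). The cause was not tested.

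Calls over all microRNAs numbered 2, against 5 with DESeq2, 5 without the filter, 6 with the replicate block and 0 to 5 with 1 library left out. Calls over all genes numbered 1065 (497 higher, 568 lower), against 586 with DESeq2 (255 higher, 331 lower), 1551 with the replicate block and 660 to 1389 with 1 library left out. Scaling by library totals gave 374 higher and 644 lower. The summed log2 ratio ran from -0.80 to -0.08 for miR-17-92 and from -0.33 to 0.38 for miR-106b-25 with 1 library left out. Scaling by totals gave -0.19 and 0.33, and moved the median over all tested microRNAs from -0.11 to 0.14. MCM6 was called without KO1 (-0.22, adjusted p = 0.0153). The replicate block gained LAMTOR4 and MYLIP and changed no call of a member. Each date had a wild-type and a knockout library in each assay, but over all tested rows same-dated libraries hardly deviated together.

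Precision was lowest for the 6 microRNA members other than miR-92a-3p and miR-25-3p, of which a library held 0 to 48 counts.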

Other observations

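A further member of the AUUGCAC seed family, miR-92b-3p, which belongs to neither cluster, was lower in both knockout libraries. It had 237, 204, 121 and 62 counts in WT1, WT2, KO1 and KO2, which are 1094 and 881 CPM in wild-type and 665 and 180 CPM in knockout. The log2 fold change was -1.23 ± 0.66 (SE, edgeR adjusted p = 0.999, unadjusted p = 0.104), and it ran from -2.44 without KO1 to -0.54 without KO2. This microRNA was chosen after its values were seen. miR-363-3p, of the same seed and of the X-chromosomal cluster, stood at 129 and 56.1 CPM in wild-type and at 44.0 and 20.4 CPM in knockout (-1.53 ± 1.39, adjusted p = 0.999, from -2.18 to -0.70 with 1 library left out). The groups overlapped for neither, as for 31.5% of all tested names (14.1% lower in knockout). The 2 other names with that seed were counted in few libraries, miR-367-3p 0, 7, 0 and 18 times and miR-32-5p 0, 0, 0 and 13 times.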
